A study of Homo sapiens with 8 samples.

Results

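Transcripts of 9 genes of inflammatory signalling were followed across 8 Affymetrix arrays of prostate cancer cells. They were the CXC chemokine genes CXCL1, CXCL2, CXCL3, CXCL5, CXCL6 and CXCL8 (interleukin-8), the CC chemokine gene CCL20, and the NF-κB feedback genes TNFAIP3 and NFKBIA. Every probe set annotated to 1 of these symbols was taken, which gave 16 of the 54613 probe sets other than controls, and the 9 genes are among 19775 with a probe set of their own. Each gene is represented below by its probe set with the highest mean over the 8 arrays, and the other probe sets are given beside it. PC3-Epi (1 array, no shRNA) is a luciferase-expressing epithelial population selected by colony from the PC3 line. The EMT group (3 arrays, no shRNA) holds the lines PC3-EMT1, PC3-EMT12 and PC3-EMT14, mesenchymal populations isolated from PC3-Epi cells that had been co-cultured with IL-4-treated macrophages. All cells descend from the same luciferase-transfected parent. The lines PC3-EMT1 and PC3-EMT14 were each also measured after lentiviral delivery of a scrambled shRNA (Scr, 2 arrays) or of an shRNA directed at ZEB1 and named sh4 (2 arrays). Values of the EMT lines are given in the order of their numbers, and those of Scr and sh4 with PC3-EMT1 first. No replicate cultures are described, so a p-value here speaks only of the spread among lines and arrays, and the number of arrays limits the precision.

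The CXC chemokines in this group carry a glutamate-leucine-arginine motif before their first cysteines and signal through the receptors CXCR1 and CXCR2, which draw neutrophils and act on endothelial cells. CCL20 binds CCR6 on lymphocytes and dendritic cells. All are classical targets of NF-κB, a family of dimeric transcription factors held in the cytoplasm by inhibitors until a kinase complex marks those inhibitors for destruction. NFKBIA encodes the inhibitor IκBα and TNFAIP3 the ubiquitin-editing enzyme A20. Both are themselves induced by NF-κB and shut the pathway down again. The PC3 line is known for secreting interleukin-8.

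Values are log2 intensities from the RMA method, in which a difference of 1 is a 2-fold change. The 4 untransduced and 4 transduced arrays had been scaled apart, with array medians of 4.33 to 4.35 and 6.19 to 6.23. Levels were therefore compared only within either set. As a limit of detection, the highest of the 27 bacterial control probe sets reached 4.56 on the untransduced and 6.00 on the transduced arrays. The labels were checked first. ZEB1, the targeted gene, read 9.87 and 10.08 in Scr and 9.12 and 9.01 in sh4, and it read 3.08 in PC3-Epi against 6.50 to 7.12 in the EMT lines. CDH1 (E-cadherin) went the other way, from 11.31 in PC3-Epi to between 3.07 and 4.00 in the EMT lines, and it read 5.61 and 5.89 in Scr and 9.63 and 9.75 in sh4. VIM (vimentin) read 11.25 in PC3-Epi and between 13.11 and 13.19 in the EMT lines, and 13.46 and 13.44 in Scr and 13.34 and 12.90 in sh4. Of 8 epithelial markers 5 fell in the EMT lines and of 5 mesenchymal markers 4 rose. FN1 (fibronectin) was not called, at 11.88 in PC3-Epi and 10.46, 12.37 and 11.69 in the EMT lines. With sh4 the epithelial markers had a median difference of 0.93, with 6 of 8 higher in both lines, and the mesenchymal markers one of -0.91, with 4 of 5 lower in both. CDH2 (N-cadherin) was higher instead, at 9.94 and 9.62 in Scr and 10.13 and 10.34 in sh4. The part of this shift in the chemokine values was not tested. Of 21 macrophage markers on the arrays, 1 (LAPTM5) exceeded the highest bacterial control on any untransduced array and 5 on any transduced array. The log2 of their summed intensities lay between 8.06 and 8.18 on the untransduced and between 9.92 and 10.05 on the transduced arrays. In cultures measured in bulk, fewer cells that express a gene and less RNA per cell cannot be told apart.

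The 6 CXC genes lie together on chromosome 4 in the order CXCL8, CXCL6, CXCL1, CXCL5, CXCL3 and CXCL2, and some of their promoters share sequence. RefSeq promoters (build GRCh38.p14) were matched by symbol for all 9 genes, and the 250 bases before each start were read on both strands. Of all words of 10 bases, GGGAATTTCC was held by the most of them, and its letters are those of a κB element, the kind of site that NF-κB dimers bind. The genes were chosen as NF-κB targets and the word was found in their promoters, so the counts are descriptions and no independent support. It stood in 6 of the 9 promoters and in 0.142% of all 35116 promoters (50 in all). CXCL1, CXCL2, CXCL3, CXCL5 and CXCL6 held it on the gene's strand and NFKBIA on the other. Of all words of 9 bases, GGAATTTCC, which lies inside the first, was held by 7 of the 9 and by 0.413% of all promoters, the addition being CXCL8. The looser GGGNNTTTCC, which takes in the first word, was held by 8 of the 9, all except CXCL8, and by 1.73% of all promoters. All matches lay between 91 and 46 bases before the start. The stretches of 60 bases around them are printed to show how alike the chemokine promoters are at this place, 5′ to 3′ on the gene's strand with the matches in capitals.

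CXCL1, chr4:73869290-73869349, plus strand: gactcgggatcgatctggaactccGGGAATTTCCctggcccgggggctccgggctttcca
CXCL2, chr4:74099238-74099297, minus strand: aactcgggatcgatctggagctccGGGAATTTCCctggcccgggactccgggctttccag
CXCL3, chr4:74038733-74038792, minus strand: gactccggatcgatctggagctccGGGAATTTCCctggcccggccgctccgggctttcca
CXCL5, chr4:73998733-73998792, minus strand: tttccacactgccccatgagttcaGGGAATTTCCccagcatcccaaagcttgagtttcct
CXCL6, chr4:73836564-73836623, plus strand: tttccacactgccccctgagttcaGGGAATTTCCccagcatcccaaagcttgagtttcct
CXCL8, chr4:73740453-73740512, plus strand: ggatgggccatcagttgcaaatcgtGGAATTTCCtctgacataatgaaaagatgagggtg
CCL20, chr2:227813738-227813797, plus strand: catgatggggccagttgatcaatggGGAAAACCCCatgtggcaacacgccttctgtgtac
TNFAIP3, chr6:137867179-137867238, plus strand: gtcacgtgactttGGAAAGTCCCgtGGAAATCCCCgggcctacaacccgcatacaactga
NFKBIA, chr14:35404796-35404855, minus strand: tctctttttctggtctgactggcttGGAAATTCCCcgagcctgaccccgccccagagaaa

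**Figure D1:**
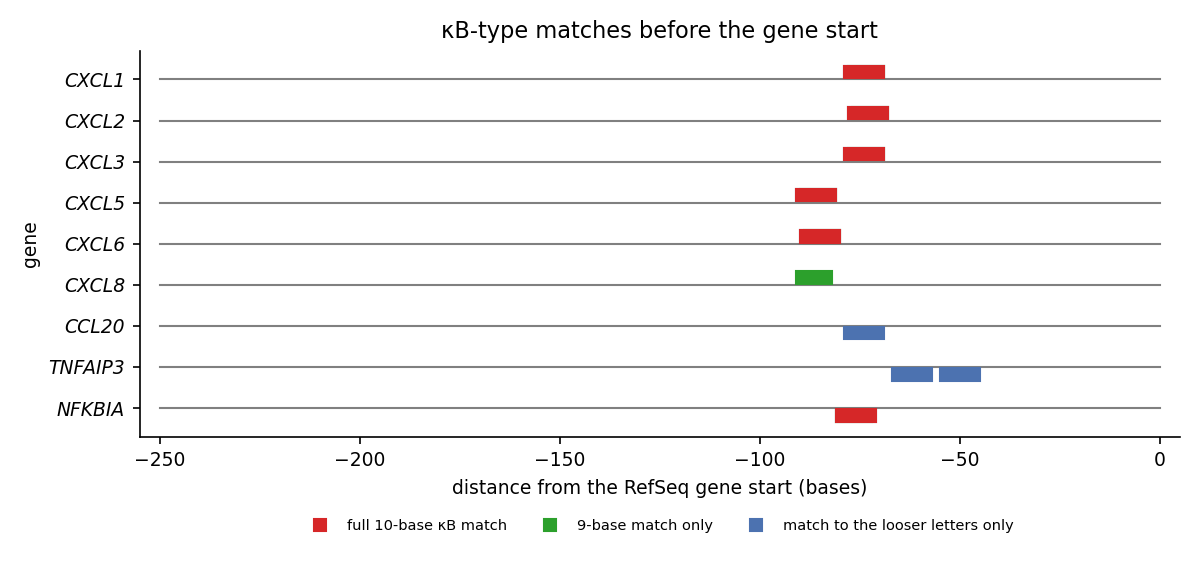
Matches to the κB-type letters in the 250 bases before each gene's start, by distance from the start in bases. Boxes above a line are matches on the gene's strand and boxes below it are matches on the other strand. The 5 CXC genes with the full 10-base element hold it between 91 and 69 bases before the start.

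Among the chemokine promoters CXCL1, CXCL2 and CXCL3 resembled each other, CXCL5 and CXCL6 formed a pair, and CXCL8 stood apart. Over the 250 bases, CXCL5 and CXCL6 were identical at 85.3% of aligned positions, CXCL1 and CXCL3 at 81.4%, CXCL2 and CXCL3 at 73.3% and CXCL1 and CXCL2 at 70.4%. CXCL1 and CXCL5, by contrast, shared 51.1%, and CXCL8 shared 42.0% to 45.4% with the other CXC promoters. For comparison, the CXC promoters shared 37.4% to 51.5% with those of CCL20, TNFAIP3 and NFKBIA. The transcripts of CXCL1, CXCL2 and CXCL3 are themselves close copies, and the suffix x in the names of the probe sets for CXCL2, CXCL5 and CXCL8 marks probes that can bind several transcripts, so part of a signal could come from a relative. This was not tested.

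The first comparison asked how the mesenchymal lines differ from the epithelial cells they came from. CXCL5, a neutrophil chemoattractant, was lower in all EMT lines, CXCL3 was higher, and CXCL1 and CXCL8 lay within 0.42 of PC3-Epi in every EMT line. Neither NF-κB feedback gene passed the test. Of the 8 members that passed the filter on low values (log2 5 or more on at least 1 array of the comparison), 1 rose and 1 fell at an adjusted p under 0.05 (limma with Benjamini-Hochberg adjustment over all 11921 genes tested), where 13.9% of all genes tested rose and 15.4% fell. The members' median difference was 0.15, against 0.07 for all genes. These shares of the 8 members are near the background, so the calls below describe single genes and not the group.

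CXCL5 read 7.44 in PC3-Epi and 4.67, 4.63 and 4.62 in the EMT lines. The 3 EMT lines lay within 0.05 of each other, just over the highest bacterial control of 4.56. The difference was -2.80 ± 0.14 (SE; adjusted p = 0.000288), a 6.94-fold lower level. A second CXCL5 probe set, 215101_s_at, read 5.80 in PC3-Epi against 3.61, 3.33 and 3.73 for the EMT lines, all 3 below the highest control. Its fit gave -2.24 ± 0.20 (adjusted p = 0.00163 over all probe sets, of which 15.5% fell), and taken against the control level it was at least 2.36-fold lower. The third, 207852_at, was under the highest control on every array. CXCL5 was the 1 member that differed 2-fold or more in every EMT line, a rule that 4.9% of all genes met in the lower direction.

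CXCL3, a close relative of CXCL1 and CXCL2, ran against CXCL5. It read 5.16 in PC3-Epi and 7.16, 6.00 and 6.95 in the EMT lines. All EMT lines exceeded PC3-Epi, with PC3-EMT12 the nearest to it. The difference of 1.54 ± 0.44 passed narrowly (adjusted p = 0.0459) and did not pass without PC3-EMT14 (1.42, adjusted p = 0.0578), with no filter on low values (adjusted p = 0.0531) or with 32 added on the linear scale (1.02, adjusted p = 0.0571).

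CXCL2 and CXCL6 had the same order of lines as CXCL3 without passing the test. CXCL2 read 7.23 in PC3-Epi and 8.35, 7.49 and 7.92 in the EMT lines, a difference of 0.69 ± 0.32 (adjusted p = 0.149). CXCL6 read 9.55 in PC3-Epi and 10.40, 9.86 and 10.28 in the EMT lines, a difference of 0.63 ± 0.23 (adjusted p = 0.0893). Both were above PC3-Epi in 3 of 3 lines. Without PC3-EMT12 both passed, at 0.90 (adjusted p = 0.0404) and 0.79 (adjusted p = 0.0196). The other CXCL2 probe sets, 1569203_at and 230101_at, were under the highest control on all 8 arrays.

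CXCL1 and CXCL8 did not separate the groups. CXCL1 read 11.14 in PC3-Epi and 11.07, 11.00 and 11.28 in the EMT lines. PC3-Epi lay between the EMT lines, and the 95% interval of the difference ran from -0.44 to 0.39. CXCL8 read 10.72 in PC3-Epi and 10.40, 10.30 and 10.61 in the EMT lines, so PC3-Epi was the highest by a small margin. That difference was -0.28 ± 0.17 (95% interval -0.71 to 0.14, adjusted p = 0.248). The other CXCL8 probe set, 211506_s_at, gave -0.28 as well (adjusted p = 0.352). CCL20 read between 3.01 and 3.96 on the 4 untransduced arrays, under the highest control on each, and was not tested there.

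TNFAIP3, whose product removes activating ubiquitin chains, and NFKBIA showed small differences. TNFAIP3 read 7.39 in PC3-Epi and 7.57, 7.33 and 7.80 in the EMT lines, a difference of 0.18 ± 0.21 (95% interval -0.33 to 0.70, adjusted p = 0.520). NFKBIA read 10.01 in PC3-Epi and 10.41, 9.78 and 10.21 in the EMT lines, a difference of 0.12 ± 0.26 (95% interval -0.50 to 0.75, adjusted p = 0.729). In both genes PC3-Epi lay inside the range of the EMT lines. PC3-EMT12 was the lowest of the 3 EMT lines in 7 of the 8 members tested, all but CXCL5, and in 41.4% of all genes tested.

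**Figure D2:**
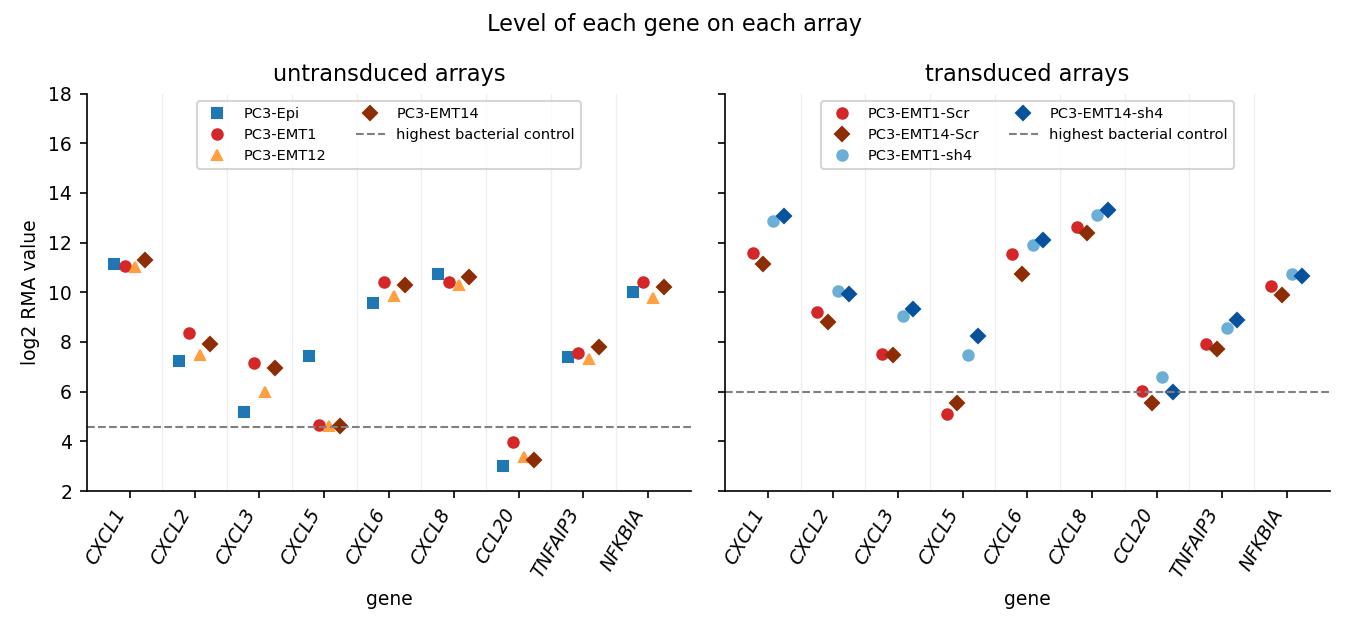
Level of the 9 genes on each array as log2 RMA values, untransduced arrays on the left and transduced arrays on the right, with the highest bacterial control of each set as a dashed line. CXCL5 drops from 7.44 to about the control level in the 3 EMT lines, and in 8 of the 9 genes both sh4 arrays lie above both Scr arrays.

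The second comparison asked what changes when the ZEB1 shRNA sh4 replaces the scrambled shRNA in the same mesenchymal line. All 9 genes were higher with sh4 in both lines, with CXCL5, CXCL3 and CXCL1 more than 2-fold higher in each. With 1 residual degree of freedom the fit of the 4 transduced arrays, with the line as a block, called 0 of 16661 genes (0%) higher or lower at an adjusted p under 0.05, the members included. At an unadjusted p under 0.05 it held 2499 genes (7.95% of all genes tested were higher), among them all 9 members. Higher in both lines by any amount were 35.1% of all genes, and 2-fold or more higher in both were 0.276% of all genes and 3 of the 9. A fit that adds the untransduced arrays of both lines, to gain 1 residual degree of freedom, called 5 members higher (CXCL1, CXCL2, CXCL3, CXCL5 and TNFAIP3). It called 0.69% of all genes higher. The added arrays carry neither shRNA and were given a level of their own, so the differences are unchanged. Only the error estimate changed, through the gap between the lines in that pair, which does not repeat the sh4 effect. Adjusted p-values from this fit are named below as those of 6 arrays. The members' median difference was 0.93, against 0.02 for all genes.

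CXCL5 had the widest gap. It read 5.11 and 5.56 in Scr and 7.46 and 8.22 in sh4. Both Scr arrays were under the highest control of 6.00 and both sh4 arrays over it. On the mean of both lines the level was therefore at least 3.58-fold higher with sh4. For PC3-EMT1 alone, with sh4 at 7.46, this bound would be lower. The fitted difference was 2.51 ± 0.13 (adjusted p = 0.111, and 0.00392 with 6 arrays). The probe set 215101_s_at was under 6.00 on all 4 arrays, at 5.12 and 4.87 in Scr and 5.24 and 5.55 in sh4, so it gives no fold here.

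CXCL3 read 7.52 and 7.49 in Scr and 9.04 and 9.32 in sh4. The Scr arrays were nearly equal and both sh4 arrays stood well above them. The difference was 1.68 ± 0.13 (adjusted p = 0.157, and 0.00527 with 6 arrays). CXCL1, which had not separated the EMT lines from PC3-Epi, read 11.59 and 11.13 in Scr and 12.88 and 13.06 in sh4. Its difference was 1.61 ± 0.19 (adjusted p = 0.223, and 0.0144 with 6 arrays), a 3.06-fold higher level. CXCL2 read 9.19 and 8.80 in Scr and 10.06 and 9.92 in sh4, a difference of 1.00 ± 0.12 (adjusted p = 0.223, and 0.0224 with 6 arrays). For all of these the groups did not overlap, which held for 8 of the 9 members and for 24.5% of all genes in this direction.

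CXCL6 and CXCL8 showed smaller gaps that differed between the lines. CXCL6 read 11.55 and 10.74 in Scr and 11.90 and 12.09 in sh4, which is 0.35 higher in PC3-EMT1 and 1.35 higher in PC3-EMT14. The mean of 0.85 ± 0.27 was called in neither fit (adjusted p = 0.311, and 0.116 with 6 arrays). CXCL8 read 12.64 and 12.37 in Scr and 13.11 and 13.32 in sh4, a difference of 0.71 ± 0.16 (adjusted p = 0.278, and 0.0781 with 6 arrays). Its second probe set, 211506_s_at, was 1.40 higher in PC3-EMT1 and stood at -0.02 in PC3-EMT14, so the probe sets of CXCL8 disagree by line. CCL20 read 6.01 and 5.55 in Scr and 6.58 and 6.00 in sh4. It was the 1 member whose groups overlapped, its level lay around the highest control of 6.00, and its difference was 0.51 ± 0.11 (adjusted p = 0.274, and 0.103 with 6 arrays).

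The feedback genes were higher beside the chemokines. TNFAIP3 read 7.91 and 7.70 in Scr and 8.57 and 8.90 in sh4, a difference of 0.93 ± 0.17 (adjusted p = 0.261, and 0.0441 with 6 arrays). Its second probe set, 202643_s_at, gave 0.84 in PC3-EMT1 and 0.81 in PC3-EMT14. NFKBIA read 10.25 and 9.89 in Scr and 10.74 and 10.67 in sh4, a difference of 0.64 ± 0.13 (adjusted p = 0.266, and 0.0663 with 6 arrays). Both sh4 arrays exceeded both Scr arrays in each gene. Over all probe sets of the members, 15 of 16 were higher with sh4 in both lines, where 32.7% of all probe sets that passed the filter were. CXCL2 1569203_at and CXCL5 207852_at, both among the 15, did not pass it. Of the 16, 4 were above the highest control on no transduced array.

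By the representative probe sets, the gap between sh4 and Scr was wider in PC3-EMT14 than in PC3-EMT1 for 8 of the 9 members. CCL20 was the exception, and 53.8% of all genes had the wider gap in PC3-EMT14. CXCL6 (0.35 and 1.35 in PC3-EMT1 and PC3-EMT14), CXCL1 (1.29 and 1.93) and TNFAIP3 (0.65 and 1.20) differed most between the lines. The other probe sets above the highest control on all 4 transduced arrays did not share this order. They were TNFAIP3 202643_s_at (0.84 and 0.81) and CXCL8 211506_s_at (1.40 and -0.02). With 1 array per line and shRNA this difference cannot be tested. For ZEB1 itself sh4 minus Scr was -0.74 in PC3-EMT1 and -1.07 in PC3-EMT14. Whether the depth of the ZEB1 reduction bears on the chemokines was not tested.

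**Figure D3:**
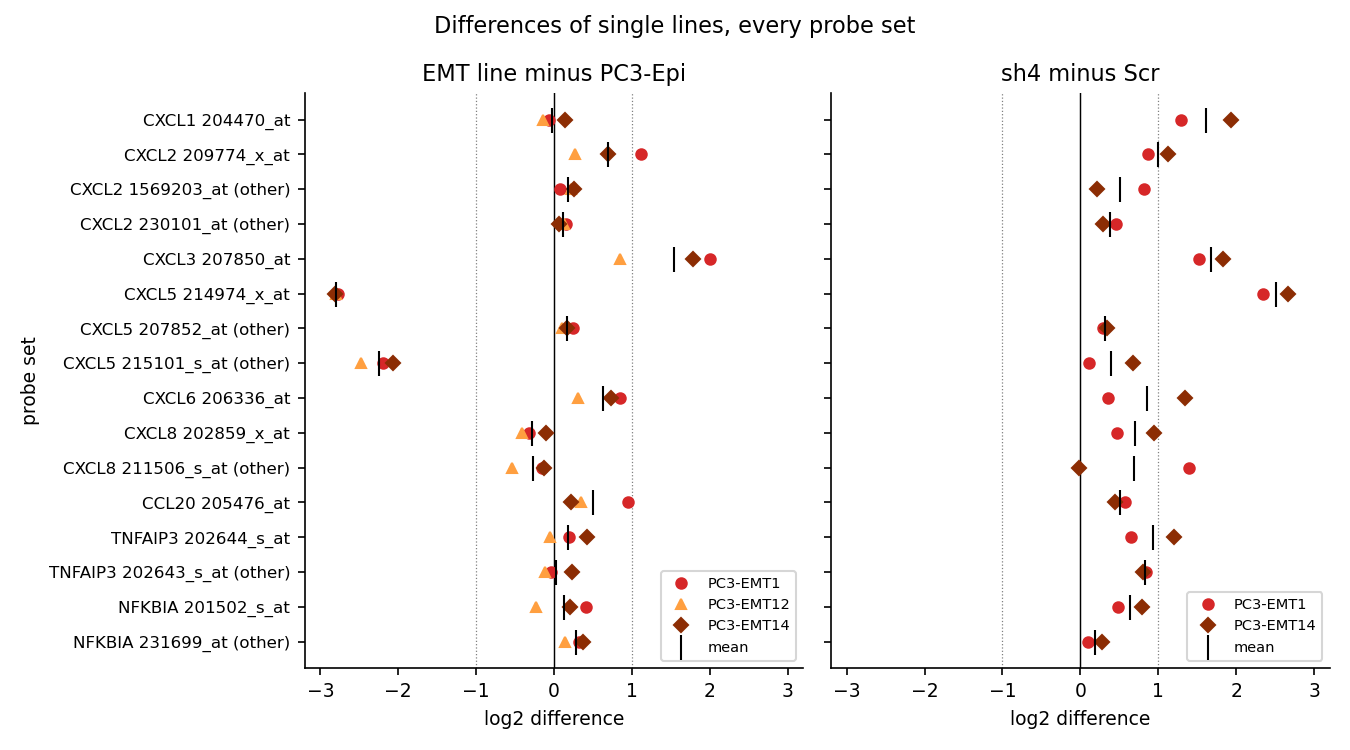
Log2 difference of every probe set of the 9 genes, each EMT line minus PC3-Epi on the left and sh4 minus Scr within each line on the right, with the mean as a vertical bar and dotted lines at a 2-fold change. On the right 15 of the 16 probe sets lie above 0 in both lines, though 4 of the 16 were above the highest control on no transduced array. On the left the representative CXCL5 and CXCL3 probe sets lie on opposite sides.

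Set side by side, the comparisons gave different patterns for different members. CXCL5 was -2.80 in the EMT lines against PC3-Epi and 2.51 with sh4 against Scr. CXCL3 was 1.54 and 1.68, above 0 in both. CXCL1 was -0.02 and 1.61, and TNFAIP3 0.18 and 0.93, and neither passed the test in the EMT lines. These comparisons use separate arrays. Within the untransduced set the levels of CXCL5 ordered PC3-Epi over all EMT lines, which did not differ beyond 0.05. In the transduced set both sh4 arrays stood over both Scr arrays, and the Scr readings, under the highest control, have no order between them.

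The third comparison set PC3-EMT14 against PC3-EMT1 in the untransduced, Scr and sh4 pairs. The 3 pairs are derivatives of the same 2 lines. Its p-values therefore measure the spread between pairs and not between independent lines. Of the 9 members, 1 was called. CCL20 was lower in PC3-EMT14, at -0.73, -0.45 and -0.58 in the 3 pairs, and passed the test at -0.59 ± 0.10 (adjusted p = 0.0387), where 0.3% of all 16662 genes tested were lower and 1.52% higher. Its readings exceeded the highest control only in the 2 transduced PC3-EMT1 arrays, at 6.01 and 6.58, and the call was lost in the fit of all probe sets (adjusted p = 0.0598) and in the fits without the untransduced or the sh4 pair. CXCL2 was lower in PC3-EMT14 in all 3 pairs, at -0.43, -0.39 and -0.14, and so was NFKBIA, at -0.20, -0.36 and -0.064. Neither passed (adjusted p = 0.176 and 0.368). CXCL5 was 0.76 higher in PC3-EMT14 in the sh4 pair and stood at -0.045 in the untransduced pair, and its Scr readings were both under the highest control (adjusted p = 0.270 over the 3 pairs). The means of CXCL1, CXCL3, CXCL6, CXCL8 and TNFAIP3 lay between -0.24 and 0.12.

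The genes around the chemokines in the pathway were read from lists of receptors, signal carriers and targets. Among receptors and decoys, CXCR2, the main receptor of these ligands, passed the filter on low values in none of the 3 comparisons, and CXCR1 passed it only where transduced arrays took part, with no call. ACKR3, a scavenging receptor for CXCL11 and CXCL12, rose by 2.14 in the EMT lines (adjusted p = 0.0460), the 1 call among 5 receptor genes that passed the filter. CXCR4 was not called (adjusted p = 0.119), at 3.30 in PC3-Epi and 4.92, 4.46 and 6.89 in the EMT lines, with PC3-Epi and PC3-EMT12 under the highest control. ACKR3 and CXCR4 were higher in PC3-EMT14 than in PC3-EMT1, by 1.91 and 1.58 (adjusted p = 0.00704 and 0.0153). These p-values, too, rest on pairs from the same lines. Of 5 other chemokines measured, CCL26, a ligand of the eosinophil receptor, rose by 2.84 in the EMT lines (adjusted p = 0.00102) and CXCL16 fell by 1.35 (adjusted p = 0.00759). Of all genes tested there, 13.9% rose and 15.4% fell. With sh4, 11 of 14 other chemokines were higher in both lines, where 35.1% of all genes were, and none was called with 4 or 6 arrays. The list's median was 0.20. Among the 11, CXCL14, XCL1 and CCL4 were under the highest control on all 4 transduced arrays, and CXCL9 exceeded it on 1. PPBP, an ELR relative from the same cluster, was under the highest control on 3 of the 4 transduced arrays and read 6.90 in PC3-EMT14-sh4.

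Components of the NF-κB cascade gave calls in both directions in the EMT lines, as all genes did (13.9% higher and 15.4% lower). Of 17 subunits and kinases that passed the filter, 3 rose, namely IKBKG (0.66), IKBKB (0.63) and RELA (0.59), which encode the regulatory subunit and a catalytic subunit of the IκB kinase and the transactivating p65 subunit. In the same list 5 fell, namely TAB2 (-0.83), TAB3 (-0.80), CHUK (-0.77), TRAF5 (-0.76) and TBK1 (-0.58), which encode adaptors and kinases. Of 16 other feedback genes and inhibitors none rose and 2 fell, the ubiquitin ligases ITCH (-0.95) and BIRC2 (-0.74). With sh4 the medians of these lists were -0.04 and 0.05, near the 0.02 of all genes, and each list held 3 genes at an unadjusted p under 0.05. PDLIM2, which promotes p65 degradation, was the 1 gene of both lists called with 6 arrays, higher by 1.02 and 1.44 in PC3-EMT1 and PC3-EMT14 (adjusted p = 0.223, and 0.0333 with 6 arrays). Values of MAP3K14, the kinase NIK, were 0.49 and 1.08 (adjusted p = 0.0857 with 6 arrays), those of the subunit gene REL 0.50 and 0.61, and those of IKBKB -0.43 and -0.49.

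Receptors and adaptors upstream of NF-κB gave 4 rises and 3 falls among 15 genes in the EMT lines, against the same background of 13.9% and 15.4%. TNFRSF11A (RANK) rose by 1.05, IL17RC by 0.84, IL17RA by 0.82 and TNFRSF1A by 0.80. IL1R2, the decoy receptor of interleukin-1, fell by 2.84, TLR2 by 1.27 and MYD88 by 0.50. For IL1R2 the readings of PC3-EMT1 and PC3-EMT12 were under the highest control. On the transduced arrays IL1R2 was above it only in PC3-EMT14-sh4, at 6.50. With sh4 it was higher by 0.79 and 1.27 in PC3-EMT1 and PC3-EMT14 (adjusted p = 0.241, and 0.0289 with 6 arrays). It was the 1 gene of this list called with 6 arrays. The list as a whole had a median of -0.02 with sh4.

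Of 17 other textbook NF-κB targets tested in the EMT lines 3 rose and 3 fell, shares near those of all genes: IL1B rose by 3.95, the survival gene BCL2A1 by 3.73 and ICAM1 by 0.63, and LCN2 fell by 5.83, TNFAIP8 by 1.83 and MMP9 by 1.60. With sh4, IL23A was 2.96 higher (adjusted p = 0.0512, and 0.00103 with 6 arrays), LCN2 1.20 (adjusted p = 0.260, and 0.0320) and IL6 0.96 (adjusted p = 0.215, and 0.0333). Of the 20 targets tested with sh4, 11 were higher in both lines, where 35.1% of all genes were, and 1 lower in both. Their median of 0.21 was below that of the 9 members. Regulators of mRNA decay and stability, which shorten or prolong the life of such transcripts, gave no rise and 3 falls among 11 genes in the EMT lines. The falls were ZC3H12C (-0.96), RC3H1 (-0.82) and ZFP36 (-0.79), where 13.9% of all genes rose and 15.4% fell. These 11 regulators had a median of 0.15 with sh4 and no call.

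**Figure D4:**
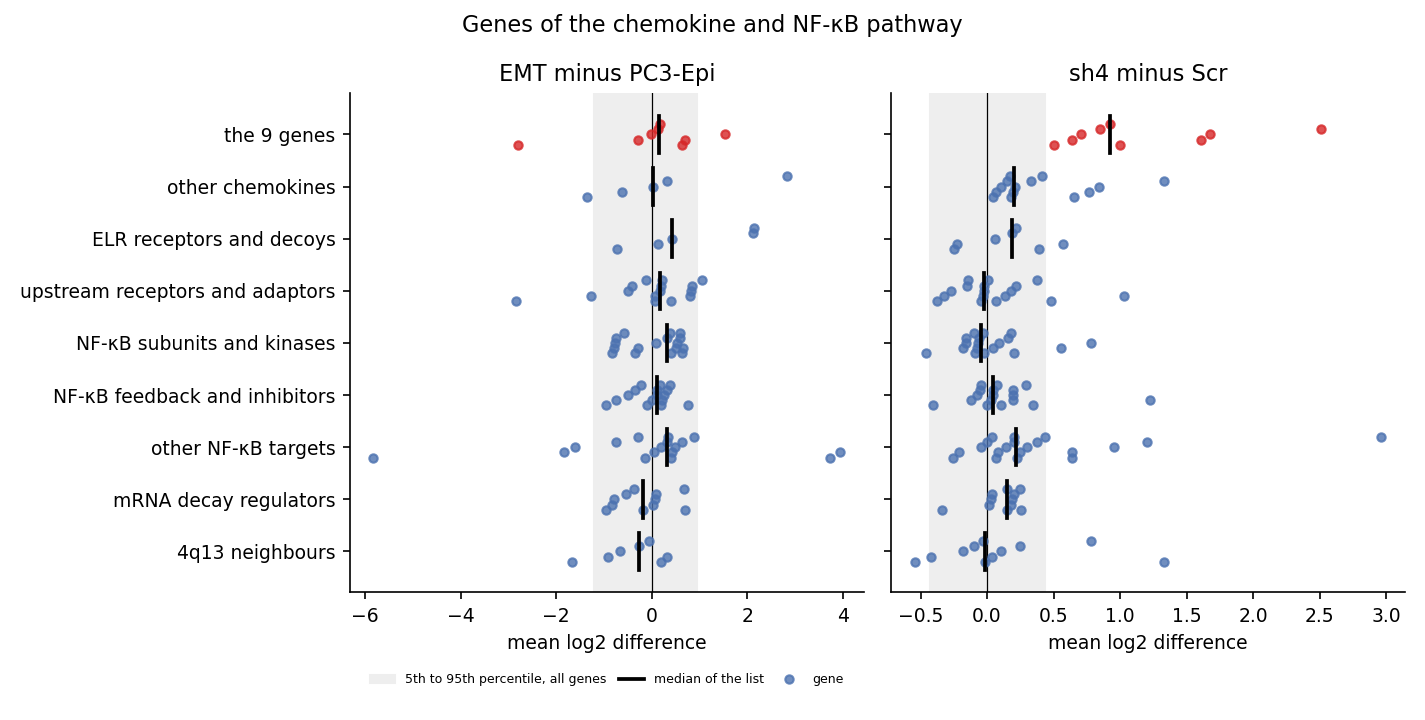
Mean log2 difference of each gene (dot) by list, EMT minus PC3-Epi on the left and sh4 minus Scr on the right, with list medians as black bars and the 5th to 95th percentile of all genes in grey. CCL20 is missing on the left, where it was not tested. On the right the members have a median of 0.93 and the other lists drawn, which leave out the epithelial and mesenchymal markers, lie between -0.04 and 0.21.

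The genes in and next to the chemokine cluster on chromosome 4, among them PF4 and PPBP inside it, were read as well. Of 7 tested in the EMT lines none rose and 3 fell, where 13.9% of all genes rose and 15.4% fell. Those lower were RASSF6 by 1.68, the growth factor gene BTC by 0.92 and MTHFD2L by 0.67. With sh4 the median of 11 such genes was -0.01, 4 were higher and 3 lower in both lines, and none was called with 4 or 6 arrays. RASSF6 was among the higher, by 0.65 and 0.91 in PC3-EMT1 and PC3-EMT14 (adjusted p = 0.247, and 0.0572 with 6 arrays). The 42 other genes whose promoters hold GGGAATTTCC were set beside the members. Of 25 tested with sh4, 10 were higher in both lines, 6 were lower in both and 0 differed 2-fold or more in both, with a median of -0.0035 against 0.0219 for all other genes. PLLP, named after its values were seen, was the 1 of them called with 6 arrays, at 0.94 and 1.14 (adjusted p = 0.220, and 0.0289 with 6 arrays). In the EMT lines 0 of 19 rose and 3 fell, PLLP by 0.87, CACHD1 by 0.64 and OPTN by 0.60. The share that fell was near the 15.4% of all genes.

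The genes whose profile lay nearest to a member were found by the Euclidean distance of their 8 log2 values, each set of 4 arrays centred on its median, among 11191 genes. Nearest to CXCL5 were C1orf116 (0.845), the epithelial adhesion molecule EPCAM (1.01) and DENND2D (1.11). Their levels were lower in the EMT lines than in PC3-Epi and higher in sh4 than in Scr, as for EPCAM at 12.86 in PC3-Epi, 9.16, 9.80 and 9.58 in the EMT lines, 10.12 and 10.71 in Scr and 12.26 and 12.50 in sh4. Nearest to CXCL1 were PI3, a protease inhibitor (0.694), the kinase gene PLK2 (0.704) and the neuropeptide gene NMU (0.801). PI3 read between 11.59 and 12.11 on the untransduced arrays, 12.41 and 11.93 in Scr and 13.07 and 13.43 in sh4. Nearest to CXCL8 were the helicase gene PIF1 (0.133), RMI2 (0.231) and CDC6 (0.259), genes of DNA repair and replication. These CXCL8 distances rest on the probe set 202859_x_at, from which 211506_s_at differed with sh4. None of the nearest genes of CXCL5 was also nearest to CXCL1 or CXCL8.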

How the data were processed

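Total RNA of 8 cell line samples was measured on 1 Affymetrix expression array each (54675 probe sets). The deposited values are log2 intensities, which the authors obtained by RMA in affy (version not given), and no further normalization was applied. Of the probe sets, 41091 carried 1 gene symbol, 1801 several and 11721 none, by an annotation matched through Entrez numbers (41037 probe sets). Differences were fitted in R 4.3.3 with limma 3.58.1 (lmFit, eBayes, Benjamini-Hochberg adjustment over all genes kept, threshold 0.05) on genes with log2 5 or more on at least 1 array of the comparison. On the transduced arrays this filter lies below the highest bacterial control of 6.00 and below the array medians. The shares and medians of all genes with sh4 therefore include genes under that control. EMT against PC3-Epi used the 4 untransduced arrays, with the lone PC3-Epi array assumed to vary like the EMT lines. sh4 against Scr used the 4 transduced arrays with the line as a block. PC3-EMT14 against PC3-EMT1 used 6 arrays with the treatment state as a block. Replicate numbers are line numbers and so pair arrays of 1 line, and deviations of same-line arrays from their group means correlated over genes (r = 0.355 to 0.480). Promoters were aligned with Biopython 1.88. The fits were also run on data simulated from their own model with independent noise. Such data cannot test the assumption on the lone PC3-Epi array or the sharing of lines between arrays.

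The 9 genes and all pathway lists were chosen with earlier results of these data known. All members are named, and so are, of each list, the genes that passed and some of those with the largest difference, the 3 nearest genes of CXCL1, CXCL5 and CXCL8, and markers of the labels. The words in the promoters and the 42 other genes that hold the first of them were examined after the results were seen. Alternatives were other filters, averaged probe sets, quantile normalization, 32 added on the linear scale, a mean-variance trend, other blocks and leaving out arrays. List genes without a symbol of their own among the probe sets, such as CCL3, CSF2 and BIRC3, were not analysed here.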

Additional observations from a re-analysis of the deposited data

Results flagged for a closer look

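The CXCL8 probe set 211506_s_at gave values of opposite sign for sh4 minus Scr, 1.3974 in PC3-EMT1 and -0.0196, close to 0, in PC3-EMT14. It read 10.31 in Scr and 11.71 in sh4 of PC3-EMT1, and 10.42 in Scr and 10.40 in sh4 of PC3-EMT14. With 1 array per line and shRNA, the difference between the lines was not tested. The other CXCL8 probe set, 202859_x_at, was higher with sh4 in both lines, by 0.47 and 0.94. The 1.40 in PC3-EMT1 rests on the 1 sh4 array of that line.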

How the results depend on the processing

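The precision is limited by 1 PC3-Epi array and 1 array per line and shRNA, and readings near the bacterial controls (CCL20, CXCL5 in the EMT lines and Scr) give understated differences or bounds. For EMT against PC3-Epi, CXCL5 passed under every alternative run, and the count of members called higher was 0 with no filter and 0 with 32 added on the linear scale. Leaving out 1 EMT line gave 0 to 3 such members, 732 to 2089 genes called higher and 1109 to 2322 lower, with the lowest counts without PC3-EMT14. CXCL1 turned in sign over these fits (-0.11 without PC3-EMT14 to 0.034 without PC3-EMT12), as did NFKBIA (-0.014 without PC3-EMT1 to 0.30 without PC3-EMT12), neither of them called. For sh4 against Scr, no member changed direction. The 4-array fit called 0 genes, and the count called higher and lower was 4 and 0 with a filter at log2 7, 13 and 2 with averaged probe sets, 36 and 13 after quantile normalization of the 8 arrays, 4 and 0 with 32 added, 2 and 0 with a trend, and 115 and 81 with 6 arrays. Quantile normalization called 2 members (CXCL3 and CXCL5) and 6 arrays called 5. Without the line as a replicate block, which is how the arrays are paired, 1 gene was called higher and 0 members. For PC3-EMT14 against PC3-EMT1, 0 members were called lower with a filter at log2 7, after quantile normalization, with 32 added and on the transduced arrays alone, and leaving out 1 pair gave 0 to 1. The genes called higher and lower were 165 and 26 with averaged probe sets, 91 and 19 after quantile normalization, 102 and 15 with 32 added, 0 and 0 on the transduced arrays alone, and 0 to 217 and 0 to 55 without 1 pair. There CXCL8 turned to -0.17 with averaged probe sets and -0.032 on the transduced arrays, and CXCL3 to -0.014 after quantile normalization. Without 1 pair CXCL1 lay between -0.13 and 0.20, CXCL3 between -0.12 and 0.12, CXCL6 between -0.46 and 0.037 and CXCL8 between -0.032 and 0.21, none of them called. The causes were not tested.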
